A study of Homo sapiens with 12 samples.

Results

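The 8 genes described here encode S100 proteins: S100A4, S100A6, S100A8, S100A9, S100A10, S100A11, S100A13 and S100A16. They were chosen by symbol, out of 20307 genes in the deposited expression table and 20 S100 genes among them, and all 8 were found. RNA sequencing covered 12 libraries, 6 from each of 2 human lines, with 3 libraries in each of 4 groups. H1299, a non-small-cell lung carcinoma line, was given the genotype label WT in the first group (C) and DCBLD2 overexpression in the second (OE). THP-1, a line from a monocytic leukaemia that turns macrophage-like under the phorbol ester PMA, carried the label WT in both of its groups. It had 24 h of PMA followed by 48 h of exposure to H1299 control (TAM-C) or to H1299 labelled DCBLD2 (TAM-OE). The sample labels speak of supernatant and the design text of co-culture, so the kind of exposure is not settled by the sources. No empty construct is named for C, and no label says that replicates were separate cultures, so the p-values below measure the spread between these libraries, which may be technical.

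S100 proteins are small calcium-binding proteins of the EF-hand type that mostly work as dimers. Inside cells they bind targets such as annexins and the cytoskeleton, and several are also released and act on receptors such as RAGE (the product of AGER) and TLR4. S100A8 and S100A9 together form calprotectin, an abundant product of neutrophils and monocytes, while S100A4, S100A6, S100A10 and S100A11 are widely expressed and are often studied in motile tumour cells and in macrophages.

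DCBLD2, the gene named on the OE label, did not follow that label. Its level in OE was 98.4 TPM ± 6.03 (SD, n = 3), and its level in C was 196.8 TPM ± 49.4 (SD, n = 3). The log2 fold change was -1.27 ± 0.17 (SE; adjusted p of 0.00284, edgeR). DCBLD2 was also lower in TAM-OE than in TAM-C, at 6.47 and 11.9 TPM (-0.81 on the log2 scale), although THP-1 carries no construct by its label. Whether the H1299 labels are exchanged, or the table does not count the construct, was not tested. Exchanged labels would turn every direction below between labelled DCBLD2 and labelled control. TPM is a level scaled for transcript length and for library depth. OE and TAM-OE are therefore called labelled DCBLD2 below, C and TAM-C labelled control, and every direction is that of the labels. Libraries held 14578887 to 26787853 estimated reads. Of 10 macrophage markers, 9 had a mean of at least 1 TPM in both THP-1 groups. Among 10 carcinoma markers, 8 did in both H1299 groups, but 4 also did in TAM-C and 6 in TAM-OE. The keratins KRT18 and KRT8, at 812 to 1431 and 392 to 576 TPM in H1299, reached no more than 1.63 and 0.657 TPM in any THP-1 library.

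All 8 genes lie on chromosome 1, within 1648 kb of GRCh38 (GENCODE release 29), in the S100 gene cluster. S100A10 (ENSG00000197747, chr1:151982915-151994390, minus strand) and S100A11 (ENSG00000163191, chr1:152032506-152047907, minus strand) stand at one end and are 38.1 kb apart. S100A9 (ENSG00000163220, chr1:153357854-153361027, plus strand) and S100A8 (ENSG00000143546, chr1:153390032-153391188, minus strand) are 29 kb apart. S100A6 (ENSG00000197956, chr1:153534599-153536244, minus strand) and S100A4 (ENSG00000196154, chr1:153543613-153550136, minus strand) are only 7.37 kb apart, with S100A5 between them. S100A16 (ENSG00000188643, chr1:153606886-153613145, minus strand) and S100A13 (ENSG00000189171, chr1:153618787-153631360, minus strand) follow. All are annotated as protein-coding. S100A13 overlaps S100A1 on the opposite strand, and S100A4 overlaps S100A3 on its own strand. Strand handling is not given in the sources used here. Reads in those overlaps therefore cannot be assigned with certainty. S100A1 and S100A3 had at most 27 and 67 reads in any library.

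The 250 bases before the RefSeq start site (GRCh38.p14) are shown for S100A6, S100A4 and S100A10, the genes with the largest rises among the 8 in THP-1, and for S100A9, which had no read in H1299. They lie at chr1:153535992-153536241, chr1:153545807-153546056, chr1:151993860-151994109 (all minus strand) and chr1:153357604-153357853 (plus strand). Capitals mark every match to the motifs searched on both strands.
S100A6: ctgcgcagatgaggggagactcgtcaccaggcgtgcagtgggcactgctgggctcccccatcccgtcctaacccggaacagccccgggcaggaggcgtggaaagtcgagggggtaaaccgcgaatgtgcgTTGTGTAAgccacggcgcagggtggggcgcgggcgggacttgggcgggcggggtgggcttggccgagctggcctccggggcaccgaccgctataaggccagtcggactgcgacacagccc
S100A4: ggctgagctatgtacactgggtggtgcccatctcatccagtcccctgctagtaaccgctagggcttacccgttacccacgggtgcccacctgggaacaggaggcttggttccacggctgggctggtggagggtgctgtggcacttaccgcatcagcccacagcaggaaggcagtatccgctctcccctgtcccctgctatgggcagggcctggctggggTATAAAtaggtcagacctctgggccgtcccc
S100A10: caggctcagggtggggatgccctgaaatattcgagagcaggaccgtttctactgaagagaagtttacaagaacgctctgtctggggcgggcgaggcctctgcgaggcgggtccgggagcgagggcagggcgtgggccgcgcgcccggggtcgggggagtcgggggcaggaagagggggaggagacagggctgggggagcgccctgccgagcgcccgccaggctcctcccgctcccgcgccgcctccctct
S100A9: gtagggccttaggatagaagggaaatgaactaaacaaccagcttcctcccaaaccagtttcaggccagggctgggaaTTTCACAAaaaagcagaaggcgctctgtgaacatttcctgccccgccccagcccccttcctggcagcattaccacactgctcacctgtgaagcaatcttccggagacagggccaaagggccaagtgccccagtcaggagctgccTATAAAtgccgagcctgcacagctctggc
The motifs were AP-1 (TGANTCA, found in 6.57% of all 35116 promoter windows of this length), C/EBP (TTNNGNAA, 33.2%), STAT (TTCNNNGAA, 6.57%), an interferon-type response element (3.02%) and the TATA box (TATAAA, 10.7%). S100A4 and S100A9 hold TATAAA 31 to 26 and 29 to 24 bases before the start. S100A9 also holds a C/EBP match 173 to 166 bases before it, and S100A6 holds one 120 to 113 bases before its start. The S100A10 window holds none of the 5 motifs. The windows of S100A6 and S100A10 are 70.0% and 71.2% G and C, against 62.8% for S100A4, 55.6% for S100A9 and a median of 58.0% over all windows. No match in any of the 13 start-site windows of the 8 genes was to the AP-1, STAT or interferon-type letters. A match describes letters only and was not tested as a binding site.

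The largest differences among these genes were between the cell lines. S100A6, a partner of calcyclin-binding protein and annexin A11, was nearly absent from H1299, with 4, 2 and 0 reads in the C libraries and 0 in each OE library. In THP-1 it was among the most abundant transcripts, at 916, 928 and 910 TPM in TAM-C and 2496, 2459 and 2341 TPM in TAM-OE. It ranked 160 or 161 of 20307 genes in TAM-C libraries and 48 to 50 in TAM-OE libraries. Per read sequenced, the 14026 reads in TAM-C against 6 in C give a ratio of 2281, and the exact binomial interval (95%) runs from 1048 to 6216. With library sizes scaled by TMM, edgeR's normalization, the ratio is 3074. The interval covers counting error only.

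S100A8 and S100A9, the calprotectin subunits, had no read in any of the 6 H1299 libraries. With a floor of 3 counts over the group, TAM-C was at least 19.5-fold higher for S100A8 and at least 304-fold higher for S100A9 per read sequenced. S100A8 was low in THP-1 as well, at 3.78, 4.77 and 4.10 TPM in TAM-C and 4.96, 5.29 and 4.39 TPM in TAM-OE. S100A9 was at 50.4, 47.2 and 41.6 TPM in TAM-C and at 59.1, 50.7 and 51.0 TPM in TAM-OE. The subunits were thus not at like levels: S100A9 had between 9.58 and 13.3 times the TPM of S100A8 in every THP-1 library. S100A12, a related product of monocytes and neutrophils that lies between them on the chromosome, had 2 reads over the 6 THP-1 libraries and none in H1299.

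S100A4, which binds non-muscle myosin and is known from metastasis research, was at 14.1, 9.69 and 6.58 TPM in C and 478, 447 and 454 TPM in TAM-C. The log2 difference of TAM-C over C was 5.70 ± 0.20 (SE; adjusted p of 9.65e-13, edgeR on all 12 libraries). S100A11, a partner of annexin A1, was the highest of the 8 in THP-1, at 2189.8 TPM ± 3.26 (SD, n = 3) in TAM-C and 396 TPM ± 10.2 (SD, n = 3) in C. Its log2 difference was 2.74 ± 0.08 (SE).

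S100A13, known for its part in the release of FGF1 and IL1A, had the opposite pattern. It was at 431, 378 and 295 TPM in C and 30.6, 27.2 and 24.9 TPM in TAM-C, a log2 difference of -3.30 ± 0.16 (SE). The gap was 13.4-fold in TPM, far smaller than the gap of KRT18 and KRT8 between the lines given above. S100A10, the annexin A2 partner that helps to bring plasminogen to the cell surface, was lower in TAM-C than in C by -0.60 ± 0.10 (SE) on the log2 scale. That order held in the labelled control groups only. In the labelled DCBLD2 groups S100A10 was at 544 TPM in TAM-OE and 349 TPM in OE, without overlap. S100A16, a broadly expressed member, was higher in TAM-C than in C by 0.69 ± 0.07 (SE).

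In this comparison 6 of the 8 genes were called higher in TAM-C and 2 lower, where 85.9% of 14244 genes tested were called (42.3% higher, 43.6% lower). Calls are at an adjusted p under 0.05 (Benjamini-Hochberg). The median log2 difference was 1.71 over the 6 genes with reads in both groups, against -0.03 over all genes. TPM groups did not overlap for any of the 8 genes, as for 85.2% of all genes tested (36.1% higher, 49.2% lower). The calls of the 6 genes with reads in both groups were kept in each of 19 alternatives; S100A8 and S100A9, at 0 in C, have no fold to compare across them. Cell line, PMA and exposure differ together here and cannot be told apart.

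**Figure D1:**
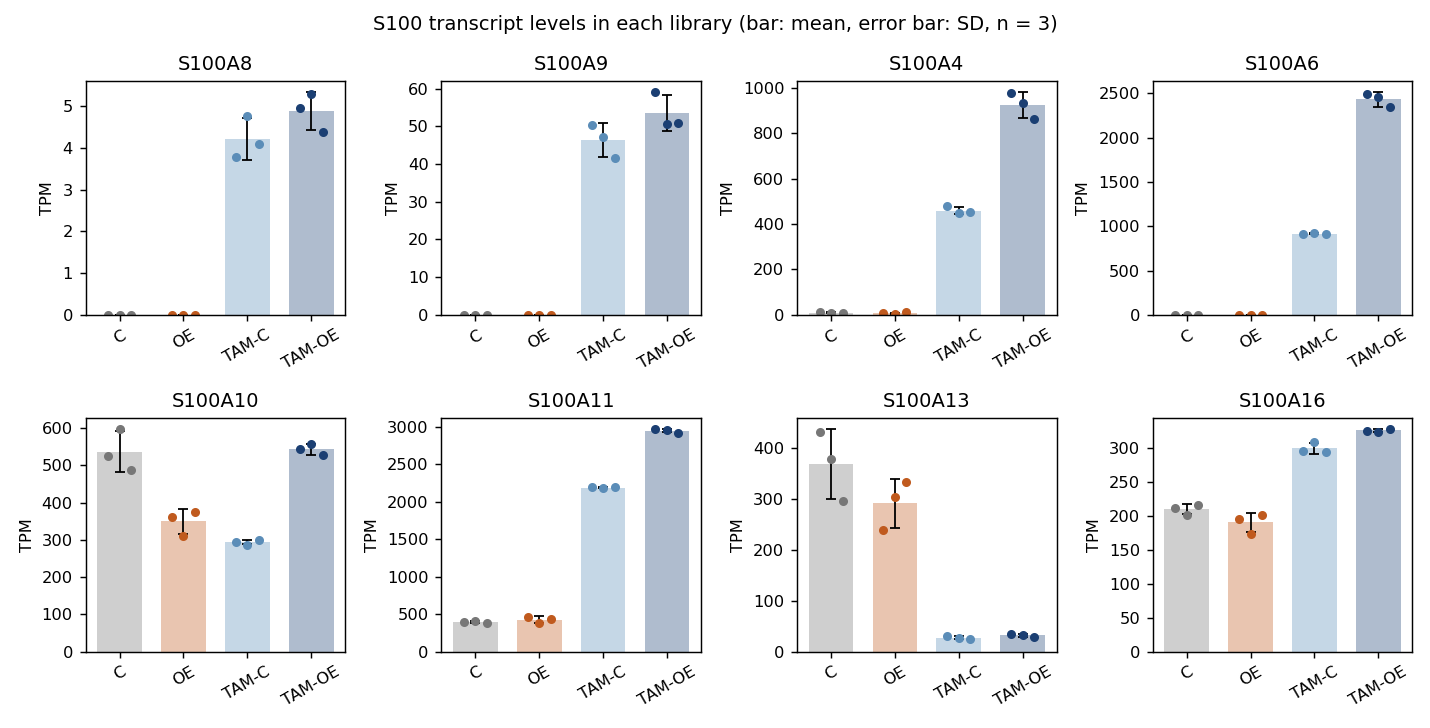
TPM of the 8 S100 genes in each library, with C and OE for H1299 labelled control and labelled DCBLD2 and TAM-C and TAM-OE for THP-1 exposed to either. Bars are means, error bars are SD (n = 3), points are libraries, and each panel has its own axis from 0. S100A4 and S100A6 are near 0 in H1299 and higher in TAM-OE (924 and 2432 TPM) than in TAM-C (460 and 918 TPM), and S100A13 is higher in H1299.

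Within a group the levels had a clear order for most neighbours. In TAM-C it ran from S100A11 over S100A6 (918 TPM ± 9.45, SD, n = 3) and S100A4 (460 TPM ± 16.4, SD, n = 3) to S100A16 (299 TPM ± 7.75, SD, n = 3) and S100A10 (294 TPM ± 5.86, SD, n = 3), whose libraries overlapped. S100A9 (46.4 TPM ± 4.47, SD, n = 3), S100A13 (27.6 TPM ± 2.90, SD, n = 3) and S100A8 (4.22 TPM ± 0.501, SD, n = 3) came last. In TAM-OE, S100A10 stood above S100A16 without overlap, with 544 TPM ± 14.7 for the former and 326 TPM ± 2.2 for the latter (SD, n = 3), and the rest kept its places. In C, S100A10 led at 537 TPM ± 55.9 (SD, n = 3), S100A11 and S100A13 (368 TPM ± 68.7, SD, n = 3) overlapped, and S100A16 (209.9 TPM ± 7.59, SD, n = 3) followed. In OE, S100A11 led at 426 TPM ± 42.6 (SD, n = 3), and S100A10 (349 TPM ± 34.1, SD, n = 3) and S100A13 (291 TPM ± 47.9, SD, n = 3) overlapped. The summed TPM of the 8 genes was 4239 ± 21.4 in TAM-C, 7267 ± 177 in TAM-OE, 1521 ± 113 in C and 1264 ± 91.3 in OE (SD, n = 3).

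In THP-1, 7 of the 8 genes rose in the labelled DCBLD2 group and none fell, led by S100A6, S100A4 and S100A10. This is to be read against a background in which 68.1% of 13120 genes were called, 34.5% higher and 33.6% lower. All 8 genes were tested, and their median log2 fold change was 0.36, against 0.00046 over all genes. The count of genes that fell was also 0 at an unadjusted p under 0.05 and with DESeq2. THP-1 replicates lay close together, with a coefficient of variation beyond counting noise of 1.96% common to all genes, against 13.3% in H1299.

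S100A6 rose 2.65-fold in TPM, from 918 to 2432 TPM ± 80.9 (SD, n = 3). Its log2 fold change was 1.44 ± 0.02 (SE; edgeR, adjusted p of 4.01e-25). Every TAM-OE library lay far above every TAM-C library. S100A4 rose 2.01-fold, with 976, 933 and 862 TPM in the TAM-OE libraries. Its log2 fold change was 1.04 ± 0.04 (SE; adjusted p of 1.01e-18), and the groups did not overlap.

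S100A10 rose 1.85-fold, from 295, 287 and 299 TPM to 544, 558 and 529 TPM. Its log2 fold change was 0.93 ± 0.03 (SE; adjusted p of 2.33e-20 by edgeR). S100A11 rose from 2192, 2186 and 2192 TPM to 2969, 2959 and 2924 TPM, a log2 fold change of 0.47 ± 0.02 (SE; adjusted p of 1.79e-18). Again no library of one group lay within the other. S100A6, S100A4, S100A10 and S100A11 kept their calls in all 14 alternatives, that with the larger spread of H1299 included.

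The other 4 genes changed little. S100A16 went from 296, 308 and 294 TPM to 326, 324 and 328 TPM, a log2 fold change of 0.15 ± 0.02 (SE; edgeR, adjusted p of 3.41e-06). Its groups did not overlap. With the common spread of the H1299 libraries its adjusted p was 0.483 (edgeR's likelihood ratio test).

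S100A9 rose by 0.24 ± 0.08 (SE) on the log2 scale (edgeR, adjusted p of 0.0114). The lowest TAM-OE library (50.7 TPM) and the highest TAM-C library (50.4 TPM) were almost level. Its call was lost without TAM-C replicate 3 (adjusted p of 0.0944) or TAM-OE replicate 1 (0.104), and with the H1299 spread (0.268). S100A13 was at 34.7, 32.4 and 29.1 TPM in TAM-OE and rose by 0.22 ± 0.09 (SE; adjusted p of 0.0381 by edgeR), with overlapping groups. Its call was lost without any of TAM-C replicate 2 or 3 and TAM-OE replicate 1 or 2 (adjusted p of 0.0598 to 0.179) and with DESeq2 (0.130).

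S100A8 did not pass the test. Its log2 fold change was 0.26 with a 95% interval of -0.31 to 0.84 (adjusted p of 0.416, edgeR), resting on 60 reads in TAM-C and 81 in TAM-OE. The groups overlapped, and at this depth a change as large as that of S100A9 could not be told from none. Groups did not overlap in TPM for 6 of the 8 genes, where 64.9% of all genes tested did not (29.9% higher, 35% lower).

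**Figure D2:**
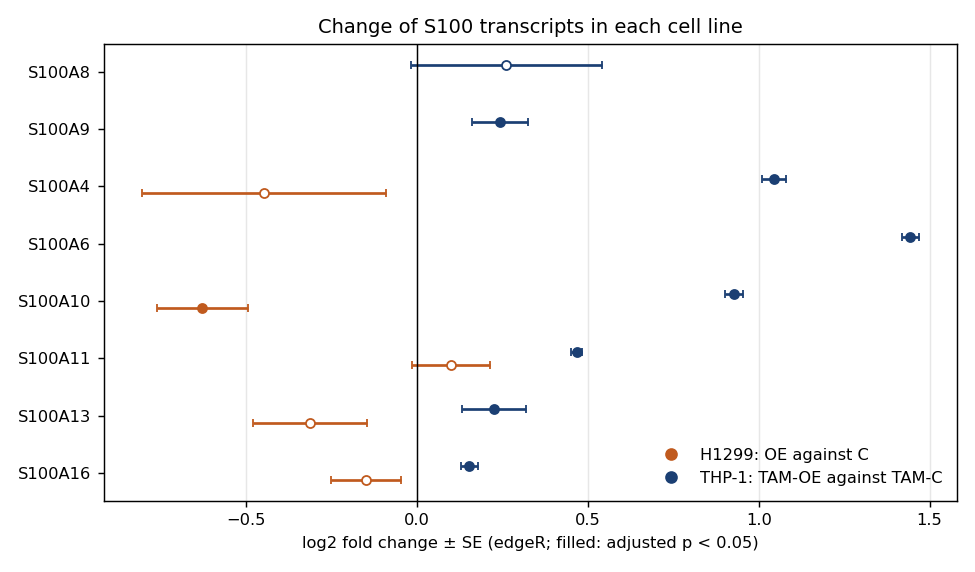
Log2 fold changes ± SE of the 8 S100 genes from edgeR, labelled DCBLD2 against labelled control, in H1299 (orange) and THP-1 (blue); filled points have an adjusted p under 0.05. In THP-1 the changes run from 0.15 for S100A16 to 1.44 for S100A6, while in H1299 S100A10, at -0.63, is the filled point; S100A6, S100A8 and S100A9 had too few reads in H1299 to be tested.

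Other measures moved with the THP-1 groups, and their part in these rises was not tested. Reads from mitochondrially encoded genes took 3.48% to 3.51% of TAM-C libraries and 2.46% to 2.58% of TAM-OE libraries, and reads from 82 ribosomal protein genes 3.73% to 3.75% and 5.14% to 5.42%. Transcript length moved too. The S100 messenger RNAs are short, and among genes in the shortest quintile by median coding transcript length (207 to 903 bases) the median log2 fold change was 0.11, with 44.7% called higher. In the longest quintile the median was -0.07, with 29.2% called higher. S100A6, S100A4, S100A11, S100A9, S100A13 and S100A8 fall in the shortest quintile, and S100A10 and S100A16 in the next, where the median was 0.07.

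Marker genes of other cell types and of macrophages moved with the same groups, and their part in these rises was not tested either. Macrophage markers summed to 5171 to 5236 TPM in TAM-C and 7120 to 7155 TPM in TAM-OE. Of the 10, 7 were called higher, FCER1G (0.83) and TYROBP (1.03) among them, and 3 lower, ITGAM (-0.87), LAPTM5 (-0.17) and CD68 (-0.08). Over all genes 34.5% were called higher and 33.6% lower. CD163, among the 7, had 37 reads in TAM-C and 96 in TAM-OE. It passed the filter on low counts through TAM-OE alone, which favours a called rise. Neutrophil and granule markers summed to 29.98 to 33.7 TPM and 48.9 to 49.5 TPM. Of 5 tested, 3 were higher, AZU1 among them, and CSF3R was lower, from 13.3 to 8.23 TPM (-0.69). The neutrophil marker FCGR3B was at 0 in every library. Carcinoma markers summed to 297 to 302 TPM in TAM-C and 222 to 238 TPM in TAM-OE, mostly PRAME and MAGEA4, which were called lower. PRAME was not particular to H1299, at 224 TPM in TAM-C and 173 TPM in C. SOX4 was also higher in TAM-C (27.0 TPM) than in C (2.86 TPM), while MAGEA4 was lower (46.0 and 871 TPM). The sum is therefore not a measure of H1299 material. The keratins were low, and KRT7 was called higher, at 0.588 and 1.07 TPM (adjusted p of 0.0217, edgeR). It had 33 reads in TAM-C and 69 in TAM-OE. KRT7 passed the filter on low counts through TAM-OE alone, which favours a called rise. KRT18 and KRT8, too low to be tested, were at 0.204 and 1.01 TPM and at 0.283 and 0.524 TPM. Groups overlapped for KRT8 only. T, NK and B cell markers summed to 11.9 to 12.1 and 7.20 to 7.504 TPM, with CD3E, CD2 and MS4A1 at 0. Endothelial and fibroblast markers summed to 174 to 178 and 145 to 153 TPM, mostly PECAM1, and keratinocyte markers to at most 0.113 TPM. In bulk samples fewer cells of a type and less RNA per cell cannot be told apart.

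In H1299 the picture was different: 1 of the 5 genes tested, S100A10, fell in the labelled DCBLD2 group and none rose. S100A6, S100A8 and S100A9 had too few reads to enter the test. Over all 12773 genes tested, 20.9% were called, 10.3% higher and 10.6% lower, so 1 of 5 is near the background. No gene of the 5 was higher at an unadjusted p under 0.05 or with DESeq2. Their median log2 fold change was -0.31, against 0.0047 over all genes.

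S100A10 was at 525, 598 and 488 TPM in C and at 362, 311 and 375 TPM in OE. The groups did not overlap. Its log2 fold change was -0.63 ± 0.13 (SE; edgeR, adjusted p of 0.0132). The call was lost without OE replicate 2 (adjusted p of 0.0728).

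S100A4 was low and variable in H1299, at 6.22, 5.48 and 10.5 TPM in OE, with a log2 fold change of -0.45 and a 95% interval of -1.24 to 0.35 (adjusted p of 0.388, edgeR). S100A13 was at 238, 304 and 332 TPM in OE, with a log2 fold change of -0.31 (interval -0.69 to 0.06). S100A16 was at 196, 174 and 201 TPM in OE and 212, 201 and 216 TPM in C, with a log2 fold change of -0.15 (interval -0.38 to 0.08). S100A11 was at 397, 405 and 385 TPM in C and 462, 379 and 437 TPM in OE, with a log2 fold change of 0.10 (interval -0.15 to 0.35). For S100A4, S100A11 and S100A13 the groups overlapped. S100A16 missed overlap by less than 1 TPM and did not pass the test. TPM groups did not overlap for 2 of the 5 genes, S100A10 and S100A16, as for 37.5% of all genes tested (17.6% higher, 19.9% lower).

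The response of S100A10 and S100A4 differed between the cell lines when the difference itself was tested. In H1299 the label is that of the cells themselves, while in THP-1 it is that of the H1299 line they were exposed to. Cell line, PMA and kind of treatment differ together here and cannot be told apart. All 5 genes measured in both lines had a higher log2 fold change in THP-1 than in H1299, and 4 of these differences were called. Over 14244 genes tested, 38.7% had a called difference, and 19.3% were called higher in THP-1. By transcript length the H1299 medians ran opposite to those of THP-1, from -0.04 in the shortest quintile to 0.13 in the longest. S100A4, S100A11 and S100A13 fall in the shortest quintile there, and S100A10 and S100A16 in the next. The part of length in these differences was not tested. The difference of the log2 fold changes was 1.54 ± 0.15 (SE) for S100A10 (adjusted p of 4.95e-06, edgeR on all 12 libraries), a gene that fell in one line and rose in the other. It was 1.46 ± 0.31 (SE) for S100A4 (adjusted p of 0.00213).

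S100A11 differed by 0.36 ± 0.11 (SE; adjusted p of 0.0204 by edgeR) and S100A16 by 0.29 ± 0.09 (SE; 0.0251). Both calls were lost without TAM-OE replicate 1 (0.0502 and 0.0577), and that of S100A16 also without TAM-C replicate 1 or 3 (0.0571 and 0.0626). S100A13 did not pass, at 0.52 with a 95% interval of 0.06 to 0.99 (adjusted p of 0.0689). It passed without C replicate 3 or OE replicate 3 (0.00832 and 0.0138) and with DESeq2 (0.0472). No difference is given for S100A6, S100A8 and S100A9, because at least 1 H1299 group had 0 reads. This fit takes one spread for both lines. With a spread of its own for each line, an alternative chosen after seeing the data, the 4 calls held, at an adjusted p of 0.0396 for S100A4 (limma voom).

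Large and small responses lay side by side in the cluster. The neighbours S100A6 and S100A4 were both among the largest rises in THP-1, yet S100A10 rose by nearly as much as S100A4 from the far end of the region, and S100A2, close to S100A4, did not pass the test. The table holds 12 further S100 genes. Of these, S100A1, S100A2, S100A3, S100A5 and S100P had a mean of at least 1 TPM in some group, 7 stayed below it, and S100G and S100Z had no read anywhere. S100P, which lies on chromosome 4, rose in THP-1 from 1.15 TPM ± 0.473 to 5.78 TPM ± 0.411 (SD, n = 3). On the log2 scale it rose by 2.34 ± 0.35 (SE; adjusted p of 1.42e-06, edgeR). These values rest on 19 reads in TAM-C and 110 in TAM-OE. S100P passed the filter on low counts through TAM-OE alone, which favours a called rise.

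S100A3, whose gene lies within that of S100A4, rose in THP-1 from 0.808 TPM ± 0.496 to 2.49 TPM ± 0.507 (SD, n = 3). It rose by 1.54 ± 0.41 (SE) on the log2 scale (adjusted p of 0.00183, edgeR). With 21 reads in TAM-C and 69 in TAM-OE, S100A3 also passed the filter in THP-1 through TAM-OE alone. In H1299 it fell from 5.83 TPM ± 2.21 to 2.60 TPM ± 0.418 (SD, n = 3), at -1.21 ± 0.34 (SE; adjusted p of 0.0337). S100A2 fell in H1299 from 20.2 TPM ± 2.83 to 11.9 TPM ± 4.24 (SD, n = 3), at -0.92 ± 0.25 (SE; adjusted p of 0.0300), and stayed between 1.10 and 1.75 TPM in THP-1. The H1299 calls were lost without C replicate 1 or OE replicate 1 or 2 for S100A2 (adjusted p of 0.0507 to 0.0943), and without those or OE replicate 3 for S100A3 (0.0554 to 0.148). S100A1 went from 3.28 to 2.21 TPM in THP-1 without passing the test (adjusted p of 0.230, edgeR), and passed with limma on log2(TPM + 1) and log2(TPM + 0.1) (0.0436 and 0.0480). S100A5 reached 1.56 TPM ± 0.850 (SD, n = 3) in C and was not tested.

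**Figure D3:**
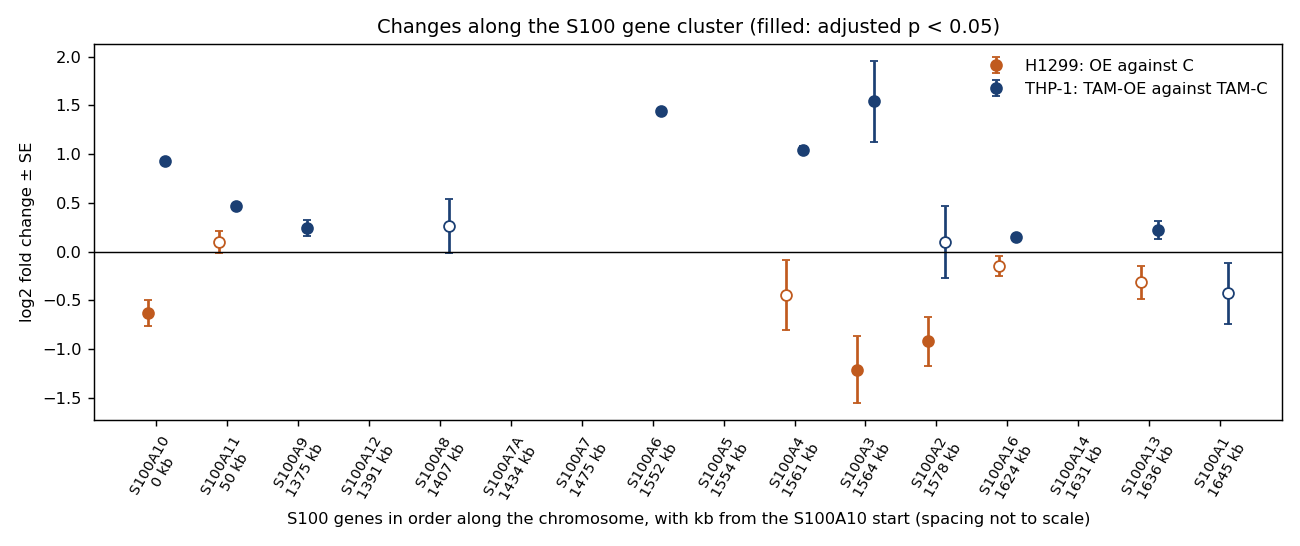
Log2 fold changes ± SE of the S100 genes of chromosome 1 in their order along it, labelled DCBLD2 against labelled control, in H1299 (orange) and THP-1 (blue); filled points have an adjusted p under 0.05 and genes without points were not tested. Called rises in THP-1 appear at S100A10 (0.93), S100A6 (1.44), S100A4 (1.04) and S100A3 (1.54), with smaller ones between and beyond them, and the called falls in H1299 are S100A10, S100A3 and S100A2. The THP-1 value of S100A3 rests on 21 reads in TAM-C and 69 in TAM-OE.

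The partners of these proteins moved in both directions. Of 17 annexins and other binding partners, 15 were tested in THP-1: 6 rose, 7 fell and 2 were not called. Over all genes tested there, 34.5% were called higher and 33.6% lower. Their median log2 fold change was 0.13. Annexin A1 (ANXA1), which S100A11 binds, rose from 44.0 TPM ± 1.16 to 83.8 TPM ± 1.39 (SD, n = 3), by 0.97 ± 0.04 (SE) on the log2 scale. Annexin A2 (ANXA2), which forms a tetramer with S100A10, was at 698 TPM ± 16.3 and 654 TPM ± 9.0 (SD, n = 3), with -0.05 ± 0.02 as its log2 fold change (SE; adjusted p of 0.0114, edgeR). That call was lost without TAM-C replicate 2 or TAM-OE replicate 2 (0.114 and 0.0547). It was also lost with all 12 libraries in 1 fit (0.539, edgeR) and with the common spread of the H1299 libraries (0.824, edgeR's likelihood ratio test). S100A10 thus rose 1.85-fold in THP-1 beside an ANXA2 level that changed little.

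AHNAK, a scaffold bound by the S100A10 and ANXA2 complex, fell by -0.71 ± 0.02 (SE) on the log2 scale in THP-1. ANXA5 fell by -0.29 and ANXA11 by -0.23, and ANXA6 rose by 0.13. With the common spread of the H1299 libraries the calls of ANXA5, ANXA11 and ANXA6 were lost (adjusted p of 0.144, 0.264 and 0.554, edgeR's likelihood ratio test). In H1299, 16 partners were tested, of which 1 was higher, 2 were lower and 13 were not called, with a median of -0.20. The shares over all genes in H1299 were 10.3% higher and 10.6% lower. ANXA2 fell there along with S100A10, from 1723 TPM ± 46.2 to 1167 TPM ± 57.1 (SD, n = 3). That log2 fold change, -0.57 ± 0.10 (SE; adjusted p of 0.00644, edgeR), kept its call without any single library. LGALS3BP, a secreted glycoprotein, was at -0.64 (lost without OE replicate 1 or 2, adjusted p of 0.0628 and 0.106). ANXA1 was at 0.40, called at an adjusted p of 0.0394 and lost without any library but C replicate 1 (0.0544 to 0.134). ANXA5, ANXA6 and ANXA11 were at -0.23, -0.34 and -0.26 there and did not pass (adjusted p of 0.0962, 0.0603 and 0.0794).

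Of 13 receptors and adaptors that S100 proteins are known to engage, 11 were tested in THP-1: 7 rose, 2 fell and 2 were not called, with a median of 0.17. Over all genes 34.5% were called higher and 33.6% lower, and with the H1299 spread the list had 4 higher and 0 lower. The TLR4 co-receptor CD14 rose from 115 TPM ± 2.07 to 319 TPM ± 3.51 (SD, n = 3), by 1.49 ± 0.03 (SE) on the log2 scale. LY96, which encodes the TLR4 partner MD-2, rose by 1.85 ± 0.13 (SE), and TLR4 itself by 0.93 ± 0.07 (SE), from 4.54 TPM to 7.92 TPM. The adhesion molecules ALCAM and NPTN rose by 0.29 and 0.17 and the scavenger receptor CD36 by 0.45, while the TLR4 adaptor TIRAP fell by -0.34. AGER, which encodes RAGE, was at 5.06 TPM ± 1.33 and 3.77 TPM ± 0.350 (SD, n = 3), at -0.37 ± 0.18 (SE), and did not pass (adjusted p of 0.0720, edgeR). It passed without TAM-C replicate 1 (0.00677). BSG, which encodes a cell-surface receptor for S100A9, fell by -0.18 from 706 TPM. ALCAM, NPTN, TIRAP and BSG lost their calls with the H1299 spread (0.144, 0.423, 0.108 and 0.403). In H1299, 6 were tested, where 10.3% of all genes were called higher and 10.6% lower. NPTN (-0.81) and TIRAP (-1.11) fell, ALCAM rose by 0.56, and BSG and AGER, at -0.15 and 0.18, were among the 3 not called. The call of ALCAM was lost without C replicate 3 or OE replicate 1 or 2 (adjusted p of 0.0513 to 0.0868).

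**Figure D4:**
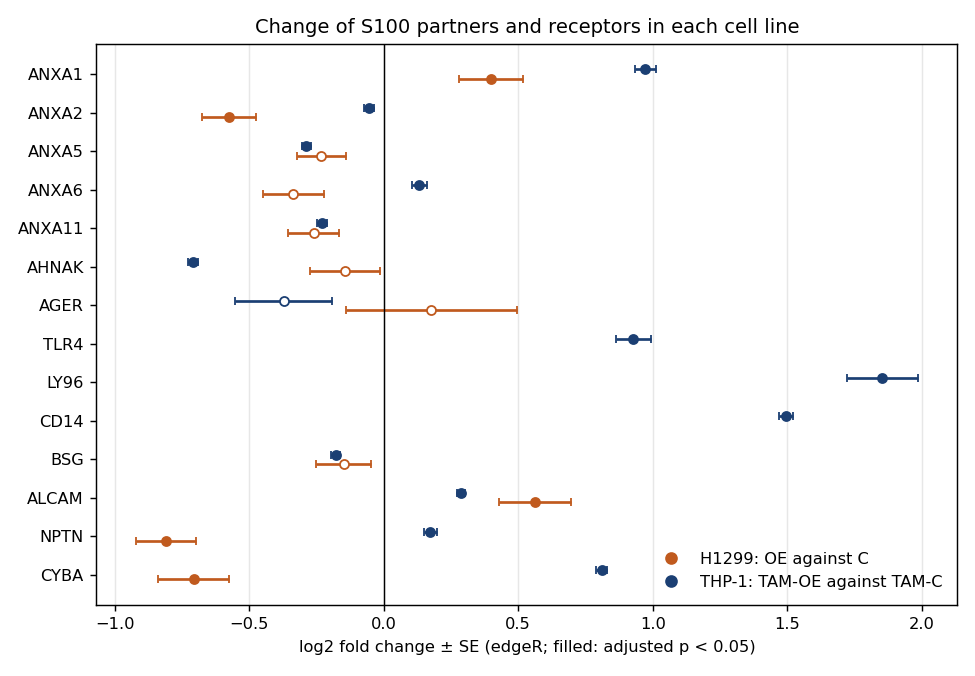
Log2 fold changes ± SE of S100 partners, receptors and CYBA from edgeR, labelled DCBLD2 against labelled control, in H1299 (orange) and THP-1 (blue); filled points have an adjusted p under 0.05. In THP-1, LY96 (1.85), CD14 (1.49), ANXA1 (0.97) and TLR4 (0.93) lie farthest to the right and AHNAK (-0.71) farthest to the left, while LY96, CD14 and TLR4 were not tested in H1299.

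The phagocyte NADPH oxidase, which calprotectin is known to help assemble, was mixed in THP-1, with 4 of 8 genes higher, 2 lower and 2 not called (median 0.07). For this list and the next, the shares over all genes were 34.5% higher and 33.6% lower in THP-1. In H1299 they were 10.3% and 10.6%. CYBA rose by 0.81 ± 0.02 (SE) to 2163 TPM, NCF4 by 0.53 and RAC1 by 0.11. In H1299 1 of 4 tested was lower, CYBA at -0.71, a call lost without OE replicate 2 (adjusted p of 0.0531). Among 15 transcription factors of myeloid genes, 5 rose, 5 fell and 5 were not called in THP-1 (median 0.03). SPI1, which encodes PU.1, rose by 0.51, and ATF3 (-0.84), IRF8 (-0.53) and JUN (-0.37) fell. CEBPE, among the 5 that rose, had 34 reads in TAM-C and 109 in TAM-OE. It passed the filter on low counts through TAM-OE alone, which favours a called rise. With the H1299 spread JUN and RAC1 lost their calls (adjusted p of 0.0550 and 0.613, edgeR's likelihood ratio test). In H1299 edgeR called none of 12 tested, with KLF4 at -0.35 (adjusted p of 0.0538) and MYB at 0.71 (0.0640) as values. DESeq2 called 1 of the 12, and 4 had an unadjusted p under 0.05 in edgeR.

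Of 17 genes that are often high in monocytes beside calprotectin, 11 were tested in THP-1, and 9 rose, 1 fell and 1 was not called, with a median of 1.15. Several that rose were low even in TAM-OE: PRTN3 at 5.63 TPM, ELANE at 4.28, PLAC8 at 4.25 and CLEC7A at 2.68, the last with overlapping groups. FCN1 was at 0.222 TPM there, with 13 reads in TAM-C and 68 in TAM-OE, and passed the filter on low counts through TAM-OE alone. Over all genes 34.5% were called higher. The gene that fell was CSF3R, the receptor of a granulocyte growth factor, at -0.69. The matrix proteoglycan VCAN rose by 3.58, to 2.39 TPM, lysozyme (LYZ) by 1.27 and the granule protein AZU1 by 1.20, with CD14 as given above. S100A9 and S100A8, at 0.24 and 0.26, had smaller values, and the differences from these genes were not tested. In H1299 only 2 were tested and VCAN was higher, at 0.94, a call lost without OE replicate 1 or 2 (adjusted p of 0.0575 and 0.0531). Of all genes in H1299, 10.3% were called higher.

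Of 30 other EF-hand proteins, 29 were tested in THP-1, with 13 higher, 12 lower and 4 not called, and a median of -0.0048. Over all genes 34.5% were called higher and 33.6% lower. Calmodulin gene CALM2 rose by 0.46, and CALU (-0.53) and the actin-bundling LCP1 (-0.39) fell. In H1299, 3 of 27 were lower, 0 higher and 24 not called, where 10.6% of all genes were called lower and 10.3% higher. The 3 were CAPNS1 (-0.44), SPARC (-1.17) and CAPN2 (-0.29), and each lost its call without OE replicate 1 or 2 (adjusted p of 0.0528 to 0.137). SPARC also lost it without C replicate 1 or OE replicate 3 (0.0555 and 0.0720), and CAPN2 without C replicate 2 or 3 or OE replicate 3 (0.0516 to 0.0914). At an unadjusted p under 0.05, 2 were higher, and DESeq2 called none higher.

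The genes whose levels over the 12 libraries ran most like those of the calprotectin subunits were found by the Euclidean distance of log2(TPM + 1), centred per gene, among 11083 genes with a group mean of at least 5 TPM. For S100A9 they were TKTL1 (distance 0.189), which encodes a transketolase-like protein, SLC11A1 (0.341), which encodes the phagosomal metal transporter NRAMP1, and WAS (0.446), the Wiskott-Aldrich actin regulator. TKTL1 had 0 TPM in all H1299 libraries, 47.8 TPM ± 3.47 in TAM-C and 55.9 TPM ± 2.75 in TAM-OE (SD, n = 3). For S100A8 they were DIRAS2 (0.346), ADAMTS15 (0.347) and ADGRL3 (0.380), each below 6 TPM in THP-1. The distance is set mainly by the gap between the cell lines, which many genes share.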

How the data were processed

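The table was made by the authors from 12 RNA-seq libraries. Per the labels' protocols, RNA was taken with Trizol and libraries were made from fragmented mRNA with the NEBNext Ultra kit. The submitters' processing notes name fastp 0.18.0, Bowtie2 2.2.8, HISAT2, StringTie 1.3.1, RSEM and the build hg38. The deposited values are TPM and estimated counts per gene (not normalized); the annotation release is not given in the sources used here, and 98.9% of gene identifiers were found in GENCODE release 29.

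Estimated counts were rounded and tested with edgeR 4.0.16 (quasi-likelihood, TMM, filterByExpr with a minimum of 10 counts; R 4.3.3), in 1 fit of 6 libraries per cell line and 1 fit of all 12 for the cell lines and the difference of responses. The filter left 12773, 13120 and 14244 genes. P-values were adjusted over all genes (Benjamini-Hochberg). SE is the log2 fold change over the square root of F. Alternatives used DESeq2 1.42.0 and limma 3.58.1. The fits were tested on simulated data.

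Members and lists were chosen with earlier results of these data known. Named are all 8 members, other S100 genes with at least 1 TPM, up to 4 called genes per list with the smallest p-values (otherwise 2 values), set annexins and receptors (NPTN, CD36, TIRAP, CSF3R and markers in THP-1 were added after their values were seen), and 3 genes nearest to each calprotectin subunit. Some genes that this rule names are not reported here. Protein sequences were not used here. Promoter windows are from RefSeq (GRCh38.p14), in which all 8 were matched. Replicates of a group differed by more than sampling noise (chi-square per gene 1.55 to 35.2), and each was counted.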

Additional observations from a re-analysis of the deposited data

Results flagged for a closer look

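For 4 of the 5 S100 genes measured in both cell lines, the response differed between THP-1 and H1299. This was a test of the difference itself (edgeR, all 12 libraries), and 38.7% of all genes tested had a called difference. H1299 cells carried the DCBLD2 label themselves, while THP-1 cells were exposed to H1299 with that label. Cell line, PMA and kind of treatment therefore cannot be told apart. The response in THP-1 minus that in H1299, on the log2 scale, was 1.54 for S100A10, 1.46 for S100A4, 0.36 for S100A11 and 0.29 for S100A16. S100A10 fell in all 3 labelled DCBLD2 libraries of H1299 and rose in all 3 of THP-1, against every library of the matching control group. Groups of 3 are too small for a check of single outlying libraries.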

How the results depend on the processing

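Between TAM-C and C, the 6 S100 genes with reads in both groups kept direction and call in all 19 alternatives. In H1299 the number of S100 genes lower, 1, lay between 0 and 1 when each library was left out, and was 2 with all 12 libraries in one fit, where S100A6 (6 reads against 0) entered the test. In THP-1 the number higher, 7, was 4 with all 12 libraries in one fit and 4 with the common spread of the H1299 libraries, under which S100A9, S100A13 and S100A16 lost their calls. For the difference of responses the number, 4, was 2 with the replicate number as a block and 2 to 5 when each library was left out.

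Replicate numbers are shared between groups by label only. Same-numbered libraries correlated at -0.25 to -0.12 in their deviations from the group means in H1299. Under other numbers, C 1 with OE 2, C 2 with OE 3 and C 3 with OE 1 correlated at 0.26, 0.30 and 0.21. Same-numbered libraries of THP-1 correlated at 0.04 to 0.08, and each library correlated best with its own number. Whether replicates are paired in either line, and under which numbers, is thus not settled. The main fits used no pairing, and the replicate number as a block was an alternative. With the replicate block the H1299 list of partners had 0 higher and that of EF-hand proteins 1 lower, and S100A11 and S100A16 lost the difference of responses.

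List counts moved too. In H1299, with all 12 libraries in one fit, they were 2 higher and 7 lower for partners, 4 and 1 for myeloid regulators and 2 and 7 for EF-hand proteins. DESeq2 gave 2 higher for partners and 1 lower for myeloid regulators. With limma on log2(TPM + 1) or log2(TPM + 0.1), receptors had 0 higher, myeloid regulators 1 higher and EF-hand proteins 1 lower. Leaving out each library gave 0 to 2 higher and 1 to 2 lower for partners, 0 to 1 higher for receptors, 0 to 1 lower for NADPH oxidase, 0 to 3 higher and 0 to 1 lower for myeloid regulators, 0 to 1 higher for monocyte genes, and 0 to 3 higher and 0 to 2 lower for EF-hand proteins. In THP-1, NADPH oxidase had 1 lower with all 12 libraries. With the common spread of H1299, partners had 3 higher and 2 lower, receptors 4 and 0, NADPH oxidase 1 lower, myeloid regulators 3 and 3, and EF-hand proteins 7 and 4. For values that did not pass the test, the sign turned for S100A2 in THP-1 with limma (-0.0657 and -0.10) and when 1 library was left out (-0.021 to 0.20; below 0 without TAM-C replicate 1 or TAM-OE replicate 1). In H1299 it turned for AHNAK (-0.27 to 0.0018) and AGER (-0.029 to 0.39) without C replicate 1 and for CALM2 (-0.064 to 0.14) without C replicate 2. Over all genes, H1299 calls (1313 higher, 1356 lower) were 184 and 330 without OE replicate 2, 981 and 816 with the block, 822 and 1058 with limma on log2(TPM + 1) and 2672 and 2384 with all 12 libraries. THP-1 calls (4528 and 4413) were 2358 and 2173 with the H1299 spread. Between TAM-C and C, limma on log2(TPM + 1) moved the share of calls that were higher from 49.2% to 42.0% and the median of all genes to -0.24. Depth limits S100A8, with 18 to 33 reads a library. The causes of these shifts were not tested.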
